A study of Mus musculus with 6 samples.

Results

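The genes described here are 8 genes of club cells, the secretory cells that line the small airways of the mouse lung: Scgb1a1, Scgb3a1, Scgb3a2, Cyp2f2, Cbr2, Gsta3, Aldh1a1 and Bpifa1. They were taken by name, as secretory and detoxifying genes of the cell type in which the CC10 promoter of the transgene is active. The choice was made with earlier results of these data known. These are 8 of the 18193 genes that the array reads through a probe set annotated to that gene alone. A probe set is a group of short probes that reads 1 stretch of a transcript, and the 8 genes have 9 of them, 1 for each gene except Gsta3, which has 2. The brightest probe set of a gene, by its mean over all arrays, was taken as the lead.

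Total lung RNA of 3 LC-HFD mice and 3 LC-RD mice, which the sample labels call HFD+Dox and RD+Dox, was hybridized to 1 Affymetrix mouse expression array per mouse. All 6 mice carried both CC10-rtTA and tet-O-EGFR-L858R on a C57BL/6 background, so that doxycycline (Dox) turned on a mutant human EGFR. By the methods, CC10-rtTA acts in adult lung and in respiratory epithelium. No lung without the induced tumor gene was analyzed here. The LC-HFD mice ate a high-fat diet with 60% of energy from fat and the LC-RD mice a regular diet, and both diets held 625 ppm Dox during induction, with 2 mg/ml Dox in the drinking water by the labels. The mice were male, 6 to 8 weeks old by the methods and 6 weeks old by the description of the experiment, which had 2 weeks of diet before 8 weeks of Dox, whereas the labels give HFD feeding until 8 weeks and then 7 weeks of Dox. The promoter that drives rtTA, CC10, is named after the product of Scgb1a1, 1 of the 8 genes.

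Club cells make the secretoglobins, small disulfide-linked proteins that are among the most abundant proteins of airway lining fluid, and they renew themselves and give rise to ciliated cells after injury. They also hold most of the cytochrome P450 activity of the mouse airway, together with reductases, dehydrogenases and glutathione transferases that deal with the products. Naphthalene, which kills club cells in the mouse, is known to clear these transcripts from the lung for a time. In whole-lung RNA, fewer club cells, less RNA per club cell and a smaller share of airway in the lung cannot be told apart. The paper reports heavier lungs and a larger tumor burden in LC-HFD than in LC-RD mice. The part of this in the differences below was not tested.

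The promoters of the genes that moved most are shown first, because Gsta3 and Cbr2 had the largest decreases and Scgb3a1 the largest increase among the 8. RefSeq's promoter table (build GRCm38.p6, 250 bases before to 50 after the start site) held 7 promoters for 6 of the 8 genes, with 2 for Aldh1a1. Each was searched on both strands for TTGCNNAA (C/EBP), TGTTTAC or TGTTTGC (FOXA), CAAGTG (NKX2-1) and TGACNNNGC (antioxidant response), letters bound by factors that are known to act on club cell genes or on detoxifying genes. Capitals mark the matches, none of which overlapped in the 3 promoters shown. The 3 windows are chr1:21240335-21240634 on the + strand for Gsta3, chr11:120731972-120732271 on the - strand for Cbr2 and chr11:49663345-49663644 on the + strand for Scgb3a1, each written 5′ to 3′ along its gene.
Gsta3: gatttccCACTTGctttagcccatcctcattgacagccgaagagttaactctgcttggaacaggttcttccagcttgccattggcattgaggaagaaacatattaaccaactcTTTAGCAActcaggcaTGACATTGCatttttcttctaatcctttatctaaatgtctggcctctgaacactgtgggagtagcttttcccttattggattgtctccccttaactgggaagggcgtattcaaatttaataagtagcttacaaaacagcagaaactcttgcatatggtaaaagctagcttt
Cbr2: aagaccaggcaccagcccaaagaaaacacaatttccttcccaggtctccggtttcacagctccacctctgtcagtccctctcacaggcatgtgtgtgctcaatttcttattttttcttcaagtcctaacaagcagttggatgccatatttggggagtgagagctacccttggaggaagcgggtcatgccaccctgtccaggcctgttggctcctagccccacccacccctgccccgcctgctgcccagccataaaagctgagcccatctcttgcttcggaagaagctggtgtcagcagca
Scgb3a1: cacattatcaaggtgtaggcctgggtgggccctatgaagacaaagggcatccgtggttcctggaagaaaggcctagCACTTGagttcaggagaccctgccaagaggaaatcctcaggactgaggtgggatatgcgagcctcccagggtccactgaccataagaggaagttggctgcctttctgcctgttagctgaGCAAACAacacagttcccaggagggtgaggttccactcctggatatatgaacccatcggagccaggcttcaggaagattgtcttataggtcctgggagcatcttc

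The Gsta3 window held a C/EBP match starting 137 bases before the start site, an NKX2-1 match at 243 and an antioxidant response match at 121. The Scgb3a1 window held an NKX2-1 match 174 bases before the start site and a FOXA match at 55. The Cbr2 window held none of these letters. Over the 6 genes with a promoter, 4 held the NKX2-1 letters (Gsta3, Cyp2f2, Scgb3a1 and Aldh1a1), as did 13.6% of all 32851 promoters in the table. The C/EBP letters stood in 2 of the 6 genes (Gsta3 and Aldh1a1) and in 10.8% of all promoters, the FOXA letters in 1 and 8.48%, and the antioxidant response letters in 1 and 12.4%. These counts are of genes, whereas the shares are of promoters. Aldh1a1, with 2 promoters, could match in either, and its NKX2-1 and C/EBP matches stood in different ones. A match describes the letters and is not a measured binding site.

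The arrays of the groups stood apart in their control probe sets, which bears on every difference below. The 18 hybridization control probe sets averaged 11.5 on every LC-HFD array and 10.0 on every LC-RD array on the log2 scale. The 3 probe sets for 18S rRNA averaged 7.57 to 7.69 on LC-HFD arrays and 12.51 to 12.54 on LC-RD arrays. The excess of 3′ over 5′ signal in control genes, a measure of RNA integrity, was 1.58 to 1.70 on LC-HFD arrays and 1.70 to 1.76 on LC-RD arrays, without overlap. In this design the effect of diet and that of how the arrays were prepared cannot be told apart. Median log2 values over all mouse probe sets were alike, 4.79 to 4.80 on LC-HFD arrays and 4.78 to 4.83 on LC-RD arrays.

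Of the 8 lead probe sets, 5 were lower and 2 were higher in LC-HFD, and Scgb1a1 did not pass (limma, adjusted p under 0.05 over all 45037 probe sets tested). Among all 18193 genes by their brightest probe set, 16.2% were lower, 11.1% were higher and 27.3% passed in either direction. The median difference of the 8 was −0.36 log2 units, against 0.02 over all genes. The LC-HFD and LC-RD values did not overlap for any of the 8 genes, as was so for 49.1% of genes. Only Gsta3 passed with a change over 2-fold, which 1.68% of genes did. Over all 9 probe sets, 2 were higher and 6 lower, against 11.3% and 13.6% of all 45037 probe sets, of which 25.0% passed in either direction. Both Gsta3 probe sets passed with over 2-fold, as did 1.73% of all probe sets, and the groups did not overlap for 9 of 9, against 43.8%.

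Bright genes were also set against other bright genes. Of the 5 club cell genes whose log2 values averaged 10 or more, 4 passed and all 4 were lower. Of the 775 genes in that range, 19.7% passed, with 10.6% lower and 9.16% higher, the groups did not overlap for 63.1%, and only 0.258% passed with over 2-fold. The number of the 8 genes that passed fell to 4 without LC-RD replicate 1 and likewise without LC-RD replicate 2, and to 4 when the excess of 3′ over 5′ signal was a covariate. The 4 that passed each time were Scgb3a1, Scgb3a2, Cbr2 and Gsta3.

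**Figure D1:**
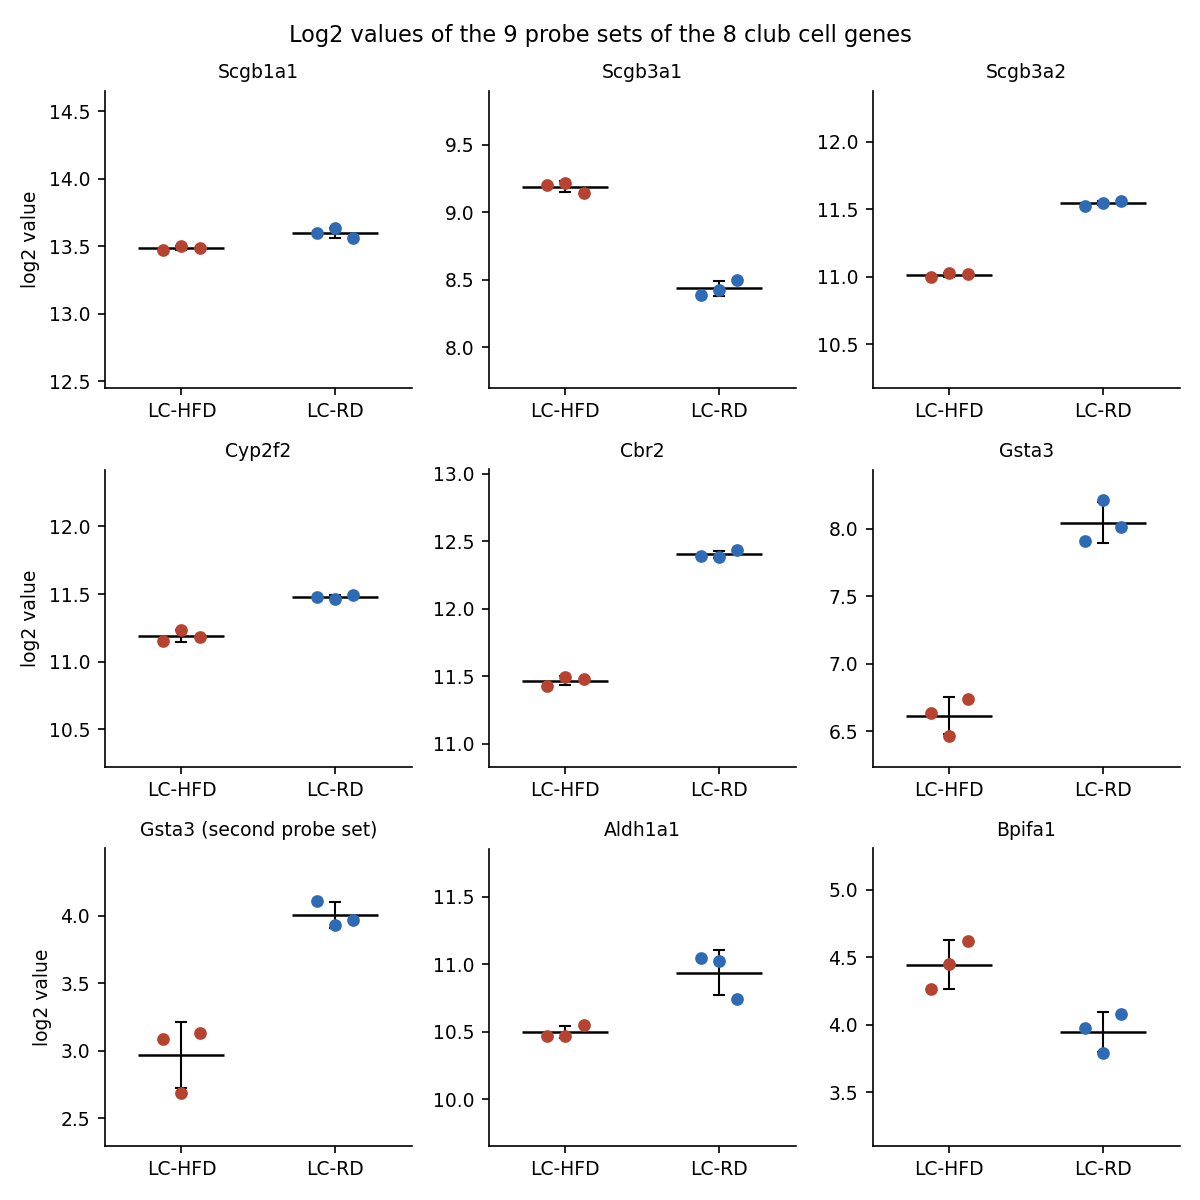
Log2 value of each of the 9 probe sets on each array, with LC-HFD in red on the left and LC-RD in blue on the right. Points are mice, lines are means of 3 mice and bars are SDs, and every panel spans the same 2.2 log2 units. The LC-HFD points lie under the LC-RD points except for Scgb3a1 and Bpifa1, and the groups are closest for Scgb1a1.

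Of the 3 secretoglobins, Scgb3a1 was higher and Scgb3a2 lower in LC-HFD, and the call on Scgb1a1 depended on the test. Scgb1a1 encodes CC10, the protein that defines the club cell. It read 13.47, 13.50 and 13.49 in LC-HFD and 13.60, 13.64 and 13.56 in LC-RD on the log2 scale. Every LC-HFD value was under every LC-RD value, but by a margin of only 0.06. The difference of −0.11 (standard error 0.0677, 95% interval −0.27 to 0.05) did not pass (limma adjusted p = 0.261), but it passed as lower with the methods' t-test (adjusted p = 0.0473) and with limma's trend and robust options (0.00402). Its standard error rests in part on the spread of all probe sets, which is wider than that of Scgb1a1 itself (SD 0.0167 in LC-HFD and 0.0357 in LC-RD, n = 3 each).

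Scgb1a1 ranked 2 of 45037 probe sets on all 6 arrays. Its mean lay under the highest value in the table, 13.81, by 0.32 log2 units for LC-HFD lungs and by 0.21 for LC-RD lungs. Array signals are known to flatten toward that end of the scale, so that a change in RNA can give a smaller change in signal. Of the 12 probe sets with means of 13 or more, 1 passed, that of the desaturase gene Scd1, which also had the largest difference (−0.41, picked out after its value was seen).

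Scgb3a2 is the other main secretoglobin of small airways. It read 11.00, 11.03 and 11.02 in LC-HFD and 11.53, 11.55 and 11.56 in LC-RD. The 3 mice of each group lay within 0.0327 log2 units of one another, so the groups stood far apart for their spread. Scgb3a2 fell by 0.53 (standard error 0.0663, 95% interval −0.69 to −0.37, limma adjusted p = 0.00229), which put the LC-HFD level at 0.693 times that in LC-RD.

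Scgb3a1, a secretoglobin of larger airways, moved the other way. It read 9.20, 9.22 and 9.14 in LC-HFD and 8.38, 8.43 and 8.50 in LC-RD. All 3 LC-HFD lungs were above all 3 LC-RD lungs by at least 0.64. Scgb3a1 rose by 0.75 (standard error 0.0721, 95% interval 0.58 to 0.92, limma adjusted p = 0.000917), a 1.68-fold increase.

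The unequal change of these family members was also read within each lung, as the log2 value of Scgb3a1 minus that of Scgb3a2, a measure picked after their values were seen. It was −1.79, −1.81 and −1.87 in LC-HFD and −3.14, −3.12 and −3.06 in LC-RD, which is a shift of 1.28 between the groups (−1.83 ± 0.0422 in LC-HFD and −3.11 ± 0.0419 in LC-RD, SD, n = 3 each). Since the pair was picked for moving apart, this is a description with no test. The value within a lung depends on the probes and is no ratio of RNA amounts, but the shift between groups compares like with like.

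All 4 detoxifying enzymes were lower in LC-HFD. Cyp2f2 is the cytochrome P450 of the mouse club cell that turns naphthalene into its toxic epoxide. It read 11.15, 11.24 and 11.18 in LC-HFD and 11.48, 11.46 and 11.49 in LC-RD. The gap of 0.23 between the groups was larger than the spread in either of them. Cyp2f2 fell by 0.29 (standard error 0.0683, 95% interval −0.45 to −0.13, limma adjusted p = 0.0220), the smallest change that passed among the 8. Its adjusted p was 0.0506 without LC-HFD replicate 3, and 0.0856, 0.0772 and 0.0600 without LC-RD replicates 1, 2 and 3, so the call was lost without any 1 of these 4 mice.

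Cbr2, a carbonyl reductase that is abundant in mouse lung, showed the clearest fall of a bright gene. It read 11.43, 11.50 and 11.48 in LC-HFD and 12.39, 12.38 and 12.43 in LC-RD. The gap of 0.89 between the groups was over 10 times the range among the mice of either group. Cbr2 fell by 0.93 (standard error 0.0681, 95% interval −1.09 to −0.77, limma adjusted p = 0.000380), to 0.523 times the LC-RD level. In the order of all 45037 probe sets it stood at places 351, 326 and 332 on the LC-HFD arrays and at places 77, 81 and 72 on the LC-RD arrays. Of all genes, 2.11% differed by more in either direction.

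Gsta3, an alpha-class glutathione transferase that couples glutathione to reactive compounds, had the largest change of the 8 genes. Its lead probe set read 6.64, 6.47 and 6.74 in LC-HFD and 7.91, 8.21 and 8.01 in LC-RD. Every LC-HFD lung was lower than every LC-RD lung by at least 1.17. It fell by 1.43 (standard error 0.110, 95% interval −1.69 to −1.17, limma adjusted p = 0.000444), to 0.371 times the LC-RD level, and 0.368% of genes differed by more.

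The second Gsta3 probe set was much dimmer and moved the same way. It read 3.09, 2.68 and 3.13 in LC-HFD and 4.11, 3.93 and 3.97 in LC-RD. All 6 values lie below the median of their arrays, and the groups did not overlap. The difference was −1.03 (standard error 0.132, limma adjusted p = 0.00241), and the median over both probe sets of Gsta3 was −1.23.

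Aldh1a1, an aldehyde dehydrogenase that also makes retinoic acid, was lower by a smaller step. It read 10.47, 10.47 and 10.55 in LC-HFD and 11.04, 11.02 and 10.74 in LC-RD. LC-RD replicate 3 was the low one of its group, 0.19 above the highest LC-HFD lung, and the SD was 0.0463 among LC-HFD lungs, against 0.168 among LC-RD lungs (n = 3 each). Aldh1a1 fell by 0.44 (standard error 0.0993, 95% interval −0.67 to −0.21, limma adjusted p = 0.0187). The adjusted p was 0.0771 without LC-RD replicate 1 and 0.0764 without LC-RD replicate 2, and the difference was −0.54 without LC-RD replicate 3.

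Bpifa1 encodes a secreted defense protein of the nose and large airways. It was dim, with 4.26, 4.45 and 4.62 in LC-HFD and 3.97, 3.79 and 4.08 in LC-RD. All 6 values lie below the median of their arrays, and Bpifa1 was the only 1 of the 8 with a mean log2 value under 6. The groups lay apart by 0.19, less than the range within either group. Bpifa1 rose by 0.50 (standard error 0.119, 95% interval 0.22 to 0.78, limma adjusted p = 0.0226). The adjusted p was 0.0532 and 0.0551 without LC-HFD replicates 2 and 3, and 0.0697 and 0.0830 without LC-RD replicates 1 and 2.

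**Figure D2:**
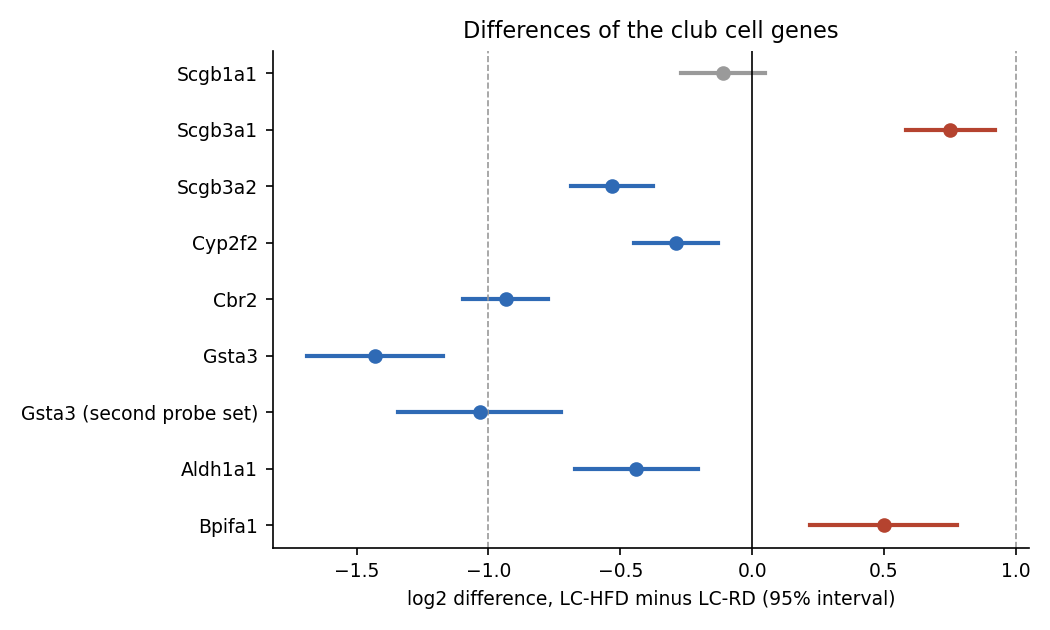
Log2 difference, LC-HFD minus LC-RD, of each of the 9 probe sets with its 95% interval; red and blue mark higher and lower probe sets with a limma adjusted p under 0.05, gray marks Scgb1a1, which did not pass, and dashed lines mark a 2-fold change. The intervals run from −1.69 at the low end of Gsta3 to 0.92 at the high end of Scgb3a1, and that of Scgb1a1 includes 0.

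**Figure D3:**
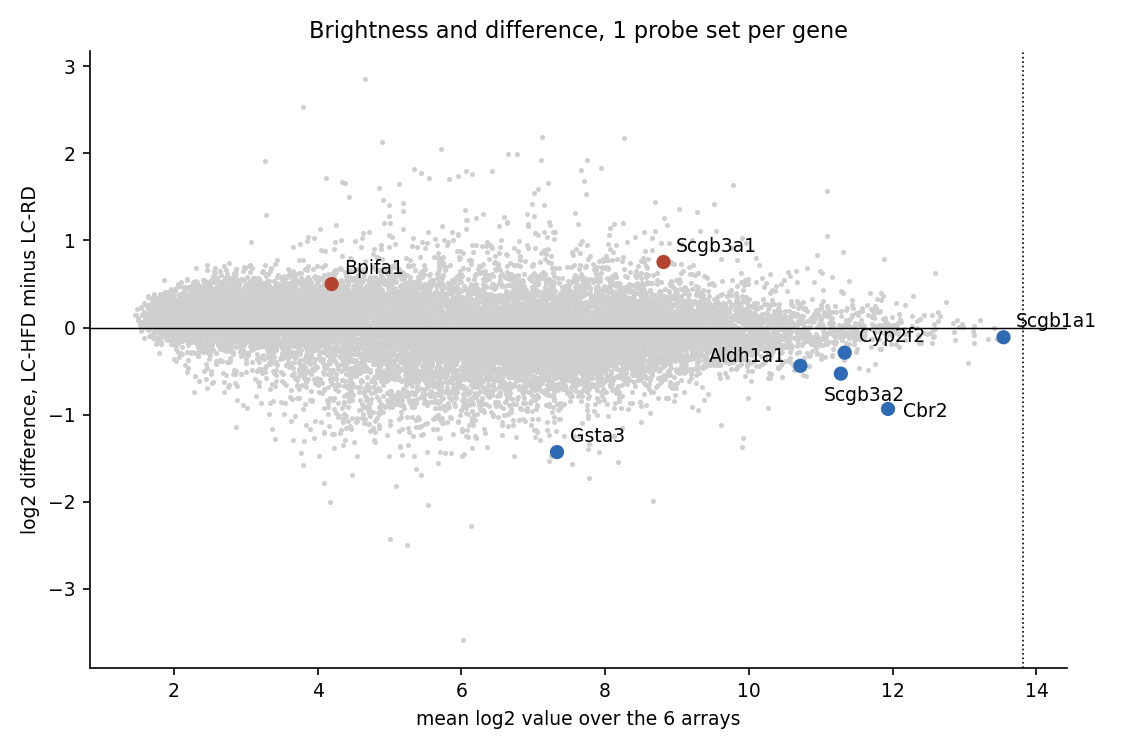
Mean log2 value over the 6 arrays (horizontal) and log2 difference, LC-HFD minus LC-RD (vertical), of the brightest probe set of each of 18193 genes, with the 8 club cell genes colored by sign. The dotted line is the highest value in the table, 13.81; Scgb1a1 lies next to it, Cbr2 is far below most genes of its brightness, and Bpifa1 sits at the dim end.

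Between mice of the same group the 8 genes did not vary as one. Pearson's r between deviations from the group means, over the 6 arrays, was 0.81 for Scgb3a2 and Cbr2 and 0.86 for Cyp2f2 and Cbr2, but −0.38 for Cbr2 and Gsta3, −0.51 for Cbr2 and Aldh1a1, and −0.90 for Scgb3a1 and Aldh1a1. With 6 arrays these values are a description. The deviations were small, since the SD among mice of a group was at most 0.0574 for Scgb1a1, Scgb3a1, Scgb3a2, Cyp2f2 and Cbr2 in both groups.

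The genes whose values followed Scgb1a1 most closely among mice of a group were Las1l, Sart1, Slc35b2, Cp, Glce and Phf21a, with r from 0.990 to 0.997 over the 6 arrays after the group means were subtracted. They were picked from the 9083 genes with log2 values averaging 6 or more, of which 178 had an r over 0.9. None of the other club cell genes was among the 6. On values that still held the group difference, 1271 genes had an r over 0.9, and of the 6 only Glce did (0.970).

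Other genes of club cells were lower more often than higher. A list of further club cell genes had 21 measured members, of which 8 fell, 2 rose and 11 missed the threshold, with a median difference of −0.17 (16.2% lower, 11.1% higher and a median of 0.02 over all genes). Cldn10, a claudin of tight junctions, fell by 0.94 (5.30 ± 0.265 in LC-HFD lungs and 6.24 ± 0.106 in LC-RD lungs, SD, n = 3 each, as for the genes below). Cckar, a receptor for cholecystokinin, fell by 0.84 (6.55 ± 0.125 in LC-HFD and 7.39 ± 0.0309 in LC-RD). Sult1d1, a sulfotransferase, fell by 0.86 but was dim (3.11 ± 0.412 in LC-HFD lungs and 3.97 ± 0.230 in LC-RD lungs), and its other probe set gave −0.42 and did not pass. The 2 that rose were the brighter genes Tst and Ephx1 (0.44 and 0.30, limma adjusted p = 0.00586 and 0.0242). Tst averaged 9.43 ± 0.0647 in LC-HFD and 8.99 ± 0.0265 in LC-RD. Ephx1 averaged 9.25 ± 0.0658 in LC-HFD and 8.95 ± 0.0363 in LC-RD. The mean of the list was 8.52 to 8.57 on LC-HFD arrays and 8.73 to 8.75 on LC-RD arrays.

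Enzymes from the same families as Cyp2f2, Cbr2, Gsta3 and Aldh1a1 were also lower where they passed. By limma, 9 of 25 measured enzymes fell, 0 rose and 16 missed the threshold, with a median of −0.18; at an unadjusted p under 0.05 the counts were 11 lower and 1 higher, and by the methods' t-test 7 and 1. Over all genes, limma called 16.2% lower and 11.1% higher, with a median of 0.02. The other carbonyl reductases Cbr3 and Cbr4 fell by 0.89 and 0.77. Cbr3 averaged 7.30 ± 0.0462 in LC-HFD lungs and 8.20 ± 0.0529 in LC-RD lungs. Cbr4 averaged 6.82 ± 0.151 in LC-HFD lungs and 7.60 ± 0.0190 in LC-RD lungs. Gsta2, a near relative of Gsta3, fell by 1.21 at a low level (3.48 ± 0.0204 in LC-HFD lungs and 4.69 ± 0.333 in LC-RD lungs), and cross-reading between the probes of such relatives was not tested. Aldh1a7, the closest relative of Aldh1a1, gave −0.08 and did not pass (adjusted p = 0.435). Aldh2 missed on its lead probe set (−0.06). Other Aldh2 probe sets gave −3.50, −2.97 and −0.90, which passed (limma adjusted p = 3.59e-05, 0.00118 and 0.00799), and 0.15, which did not. Cyp2j6 and Gstm1 also missed on the lead but passed as lower on another probe set (−0.87 and −0.41, limma adjusted p = 0.00179 and 0.0168). The remaining Gstm1 probe sets did not pass. Cyp2b10, a cytochrome P450, fell by 0.61. Cyp2b10, Gsta4, Gsto1 and Aldh1a7 are also in the list of further club cell genes, and Cyp2b10 and Gsta4 count as lower in both lists.

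Of 14 measured secreted defense proteins of the airway, 3 rose, 2 fell and 9 missed the threshold, with a median of 0.11. Over all genes 11.1% were higher and 16.2% lower, so these counts lie near the background. Reg3g, an antibacterial lectin, rose by 0.80 (5.83 ± 0.0764 in LC-HFD lungs and 5.02 ± 0.138 in LC-RD lungs). Bpifb1, a relative of Bpifa1 in large airways, rose by 0.72 (5.62 ± 0.335 in LC-HFD lungs and 4.90 ± 0.0912 in LC-RD lungs), and its other probe set gave 0.98. Pigr, which carries antibodies across epithelium, fell by 0.59 (6.79 ± 0.0587 in LC-HFD and 7.38 ± 0.0330 in LC-RD), while its other probe set gave −0.27 and did not pass.

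Among 14 measured factors that control club cell genes, 6 fell, 3 rose and 5 missed the threshold, with a median of −0.22, against 16.2% lower, 11.1% higher and a median of 0.02 over all genes. Nkx2-1, the lung epithelial factor whose binding letters were searched above, rose by 1.26 (6.84 ± 0.0709 in LC-HFD lungs and 5.58 ± 0.147 in LC-RD lungs, limma adjusted p = 0.000429). Sox2, which marks airway rather than alveolar epithelium, fell by 1.16 (4.68 ± 0.0317 in LC-HFD and 5.84 ± 0.261 in LC-RD, adjusted p = 0.00159). Cebpd, a C/EBP factor, fell by 0.84 (8.54 ± 0.0862 in LC-HFD and 9.38 ± 0.0589 in LC-RD), with −0.95 on its other probe set. The C/EBP factors went both ways, since Cebpb fell by 0.47 and Cebpa rose by 0.56 (limma adjusted p = 0.00904 and 0.00314). Nfe2l2 counts among those that rose, by 0.27 on its lead probe set (limma adjusted p = 0.0340). Its dimmer other probe set gave −1.50 (limma adjusted p = 0.00218). Notch1 and Notch2 missed on the lead but passed as higher on a dimmer probe set (0.70 and 0.58, limma adjusted p = 0.000956 and 0.0100). Nfib missed on its lead, while other probe sets of it passed in both directions (−0.46 and 0.41, limma adjusted p = 0.0158 and 0.0295). The remaining Nfib probe sets did not pass. RNA of a factor does not measure its activity.

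Markers of other lung cells were read beside these results, against the same background of 16.2% lower and 11.1% higher over all genes. By limma, 2 of 10 ciliated cell markers were lower and 0 higher (Ccdc39, −1.05, and Dynlrb2, −0.57), against 3 lower and 2 higher at an unadjusted p under 0.05 and 1 and 0 by the methods' t-test, with list means of 6.08 to 6.24 on LC-HFD arrays and 6.22 to 6.34 on LC-RD arrays, and Foxj1, the factor that defines the cell, did not pass (0.33, adjusted p = 0.0882). The other probe sets of Ccdc39 gave −0.19 and 0.07 and did not pass (limma adjusted p = 0.241 and 0.574). Of 9 alveolar type II markers, 1 was higher (Abca3, 0.30) and 0 lower. At an unadjusted p under 0.05 the counts were 2 and 1, and by the methods' t-test 1 and 2. The other probe sets of Abca3 gave −0.11, which did not pass, and −0.49, which passed as lower (limma adjusted p = 0.0195). The list means of the type II markers overlapped, with 12.49 to 12.52 on LC-HFD arrays and 12.50 to 12.53 on LC-RD arrays. Sftpc, the brightest, averaged 13.81 in both groups, at the highest value in the table, so a rise could not show there. Its dim other probe set gave 1.45 (limma adjusted p = 0.00321). Those of Etv5 gave −0.48 and −0.37 (limma adjusted p = 0.00401 and 0.0110). Of 8 alveolar type I markers, 1 was higher (Aqp5, 0.39) and 1 lower (Rtkn2, −0.41). At an unadjusted p under 0.05 the counts were 2 and 1, and by the methods' t-test 3 and 1. Akap5 and Cldn18 missed on the lead. The other Akap5 probe sets passed as lower (−0.60 and −0.54, limma adjusted p = 0.00337 and 0.0133). That of Cldn18 passed as higher (0.25, limma adjusted p = 0.0471). Of 7 general epithelial markers, 3 were higher and 0 lower (Krt19 0.42, Krt18 0.42 and Cldn7 0.32), against 5 and 1 both at an unadjusted p under 0.05 and by the methods' t-test, with list means of 10.97 to 10.98 on LC-HFD arrays and 10.77 to 10.80 on LC-RD arrays. Of the ciliated markers, 5 had mean log2 values under 6, as did none of the alveolar or general epithelial markers. The part of any of these cells in the club cell results was not tested.

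**Figure D4:**
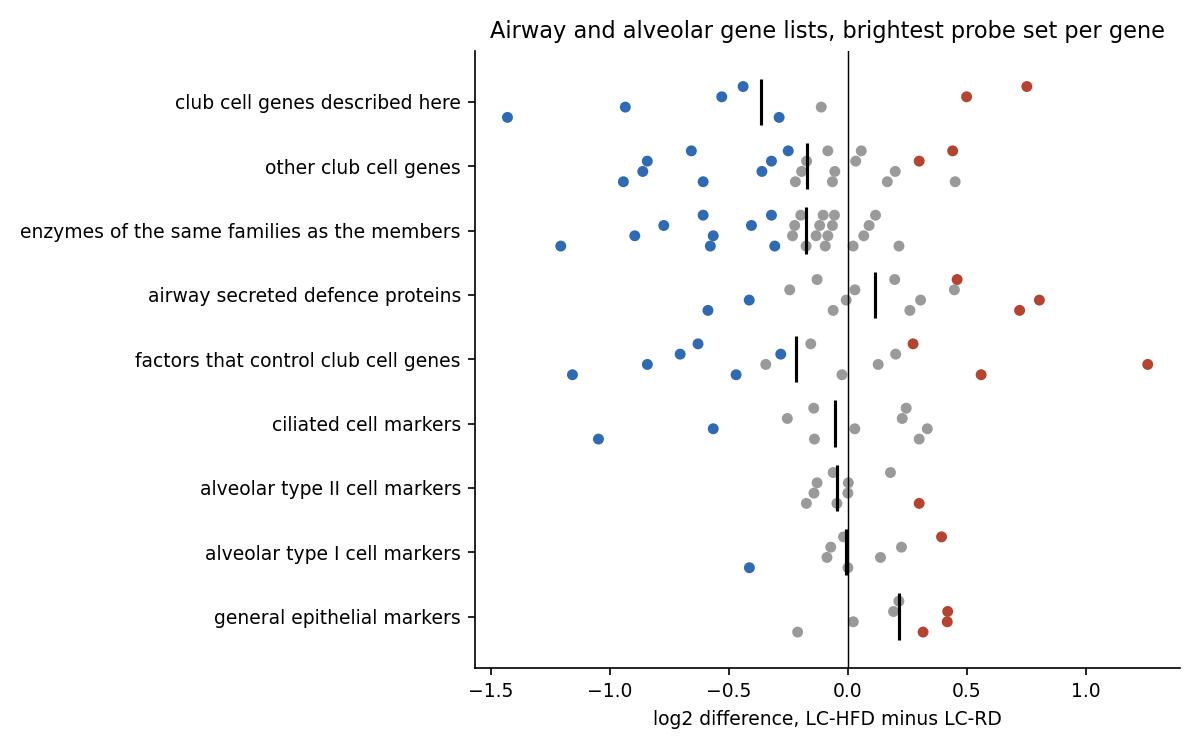
Log2 difference, LC-HFD minus LC-RD, of the brightest probe set of each measured gene in 9 lists; each point is a gene, red and blue mark a limma adjusted p under 0.05 with a higher or lower value, and black lines are list medians. The lists of club cell genes and related enzymes have their medians left of 0, from −0.36 to −0.17, and that of general epithelial markers lies right of it at 0.21.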

How the data were processed

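The authors deposited 1 log2 value for each of 45101 probe sets and 6 arrays. The submitters' processing notes name GCRMA, a method that estimates nonspecific signal from the bases of each probe, and the methods name Partek software. For both, version and settings are not given in the sources at hand. The values were used as deposited, and 0 columns per sample were left unused. GCRMA pulls dim probe sets toward a common floor and bright ones are limited by the scanner range, so differences at both ends can be too small.

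Without the 64 control probe sets, 45037 remained, and limma 3.58.1 (R 4.3.3) gave two-sided tests with Benjamini-Hochberg adjustment over all of them. Each array is 1 mouse, and 3 arrays per group limit the precision. The platform annotation gave 34945 probe sets exactly 1 gene, and symbols were matched through the Entrez ID. Figures used Python 3.11.15 and matplotlib 3.10.9. The fit was checked on simulated arrays with known changes.

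The members and lists were chosen with earlier results of these data known. Named genes are all 8 members, the up to 3 largest changes that passed in each list, defining markers, and the 6 genes most like Scgb1a1. Aldh1a7 and Cyp2b10 were named for their relation to members after values were seen. Gsta4 and Gsto1 were named as shared between lists. Aldh2, Cyp2j6, Gstm1, Sftpc, Etv5, Cebpa, Cebpb and Nfe2l2 were named after values were seen, because other probe sets or related factors differed. So were Akap5, Cldn18, Nfib, Notch1 and Notch2. Tst and Ephx1 were likewise named after values were seen, as the genes that rose in their list. Each result was recomputed with the t-test named in the methods (also Benjamini-Hochberg adjusted), with limma's trend and robust options, with weights per array, after quantile normalization or centering on the median, with probe sets of mean log2 value under 4 or 6 removed, with a change over 2-fold required, with the replicate number as a block, with the excess of 3′ over 5′ signal in control genes as covariate, with other choices of probe set, and without each array in turn. Protein sequences were not used here.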

Additional observations from a re-analysis of the deposited data

How the results depend on the processing

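Scgb3a1, Scgb3a2, Cbr2 and Gsta3 kept their direction and passed under all 15 alternative fits that set no fold threshold. Cyp2f2 passed in 9 of 15 (adjusted p 2.48e-05 to 0.0989), Aldh1a1 in 10 of 15 (0.000129 to 0.134) and Bpifa1 in 8 of the 14 that kept its probe set (0.0124 to 0.156); the methods' t-test gave Aldh1a1 0.0597 and Bpifa1 0.0825. Scgb1a1 passed with the methods' t-test (adjusted p = 0.0473) and with an intensity trend and robust variance (0.00402), and its difference was 0 after quantile normalization because it held the same place on every array. When the excess of 3′ over 5′ signal was a covariate, 4 of the 8 genes, 5 of the 9 probe sets and 3558 of all probe sets passed, against 7, 8 and 11250. With a 2-fold threshold as well, 1 gene, 2 probe sets and 781 of all passed. Leaving out 1 array gave 4 to 7 genes, 5 to 8 probe sets and 5792 to 11531 of all, with the lowest counts without LC-RD replicate 1 or 2. The methods' t-test called 7950 probe sets in all.

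Same-numbered arrays showed no likeness in their values. Their deviations correlated at −0.09 to −0.03, and no array correlated best with its own number. With 3 arrays per group this cannot tell whether such mice shared more than a number. With a replicate block, 5 of the 8 genes, 6 of the 9 probe sets and 7906 of all passed, and Aldh1a1 (adjusted p = 0.0502) and Cyp2f2 (0.0727) did not.

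Brightness limits both ends of the scale. Bpifa1 and the dimmer Gsta3 probe set lay below the array median, and Scgb1a1 lay close to the highest value in the table.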

Other observations

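Airway cartilage, basal cell and neuroendocrine markers were dim in these lungs, whereas most smooth muscle markers were not. Over all genes, limma called 11.1% higher and 16.2% lower. All 6 measured airway cartilage markers (Acan, Cnmd, Col2a1, Col9a1, Matn1 and Matn3) had mean log2 values under 6, and 0 of 6 passed by limma (2 at an unadjusted p under 0.05, 0 by the methods' t-test), with list means of 3.15 to 3.48 on LC-HFD arrays and 3.04 to 3.23 on LC-RD arrays. All 5 basal cell markers (Krt5, Krt14, Krt15, Ngfr and Trp63) were also under 6 and 0 of 5 passed (3 and 0), although their list means, 3.95 to 4.11 in LC-HFD and 3.54 to 3.66 in LC-RD, did not overlap. Of 3 measured neuroendocrine markers, Resp18 (0.68) and Chga (0.29) were higher by limma at levels under 4 (2 at an unadjusted p under 0.05, 0 by the methods' t-test). Of 5 smooth muscle markers 0 passed (2 and 0), with list means of 7.02 to 7.21 in LC-HFD and 6.97 to 6.98 in LC-RD. These values were read beside the higher Scgb3a1, Bpifa1 and Bpifb1, and their part in those was not tested.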
